A study of Mus musculus with 12 samples.

Results

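The transcripts of 9 genes were followed across mouse hematopoietic stem cells that differ in age and in surface IL27RA: the kinase genes Jak1, Jak2 and Tyk2 and the transcription factor genes Stat2, Stat3, Stat4, Stat5a, Stat5b and Stat6. They were chosen by symbol as members of the JAK and STAT families and make up 9 of the 20457 genes in the deposited table. The series profiled bone marrow stem cells of C57BL/6 mice by RNA sequencing of 50 sorted cells per library, made with Smart-Seq2, which amplifies full-length cDNA from few cells. The 4 groups held 3 libraries each: IL27RA- and IL27RA+ cells of young mice, aged 2 months, and IL27RA- and IL27RA+ cells of old mice, aged 28 months. The labels name no transgene, deletion or treatment in any group. Whether replicate libraries stem from different animals, and whether both fractions came from the same mice, the labels do not say, so a p-value here measures only how far these libraries spread, which may be technical. One label field of old IL27RA- replicate 1 calls it young, while its title and stated age give old, and it was treated as old.

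IL27RA is the receptor chain specific for the cytokine IL-27, and it signals together with gp130, the product of Il6st, through JAK kinases bound to the inner side of both chains. Activated JAKs phosphorylate the receptor tails, STAT proteins dock there, are phosphorylated in turn, pair up and enter the nucleus, where they switch on survival, growth and interferon genes and also the SOCS genes, whose products shut the pathway down. In hematopoietic stem cells the same kinases and factors carry the signals of interferons and of many interleukins. These data count RNA, and phosphorylation was not measured.

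Stem cell markers were present in every group: Procr averaged between 5819 and 13893 normalized counts, Kit between 7451 and 8755, Hlf between 7249 and 9801 and Mecom between 3222 and 4460.2 over the 4 groups. A normalized count is a read count divided by the size factor of its library. Reads in genes ranged from 11669083 to 24153167 per library. Old IL27RA- replicate 1 stood apart by reads of the antibody light chain gene Igkc, and together with young IL27RA- replicate 2 it received the lowest precision weights from limma, 0.542 and 0.434. The mature B cell list, 4 of 7 genes in the table, summed to 313703 normalized counts in old IL27RA- replicate 1. The next highest sum was 1444, in old IL27RA- replicate 3. Macrophage marker levels followed the sort: the sum over the 13 markers in the table ran from 1661 to 2319 normalized counts in young IL27RA-, from 5902 to 9567 in young IL27RA+, from 1191 to 1749 in old IL27RA- and from 2124 to 9661 in old IL27RA+ libraries. The macrophage gene C1qa averaged 45.2, 909, 30.5 and 925 normalized counts in these groups, and Marco was at or near 0 in all of them. Markers of other cells also moved with the groups, and the values are given with the comparisons. In bulk RNA, fewer cells of a type and less RNA per cell cannot be told apart.

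The upstream regions of 2 members are shown because they held the only matches to STAT response elements found among the 9 genes. The 250 bases upstream of each RefSeq start in GRCm38.p6 gave 12 windows for the 9 genes. They were searched on both strands for the gamma-activated site, TTCNNNGAA, which dimers of most STATs recognise, and for the interferon-stimulated response element, GAAANNGAAA, which the STAT2 and IRF9 complex recognises. None of the 12 windows held TTCNNNGAA, which occurred in 7.02% of all 32851 upstream windows in the table. GAAANNGAAA, or its complement read on the other strand, occurred in 2.98% of all windows and in 2 of the 12, in capitals below. A match describes letters only and not binding.
Stat2, chr10:128270248-128270497, plus strand: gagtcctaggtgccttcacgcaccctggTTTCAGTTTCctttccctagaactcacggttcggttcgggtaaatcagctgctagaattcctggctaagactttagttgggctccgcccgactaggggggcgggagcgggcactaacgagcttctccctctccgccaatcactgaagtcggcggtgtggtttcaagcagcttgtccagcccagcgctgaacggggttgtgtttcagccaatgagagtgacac
Stat4, downstream of its 2 starts, chr1:52007990-52008239, plus strand: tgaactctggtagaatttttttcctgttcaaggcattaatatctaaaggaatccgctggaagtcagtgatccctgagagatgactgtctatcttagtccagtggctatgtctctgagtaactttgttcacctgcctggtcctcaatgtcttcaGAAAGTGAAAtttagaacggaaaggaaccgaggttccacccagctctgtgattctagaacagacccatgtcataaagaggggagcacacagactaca
The Stat2 match began 222 bases before the start and the Stat4 match 97 bases before it. Among protein-coding genes Stat5b, Stat5a and Stat3 are direct neighbours on chromosome 11, while Stat2 and Stat6 both lie on chromosome 10.

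All 9 genes were expressed in every library and passed the filter for testing, which required 10 or more normalized counts in at least 3 of 12 libraries. The smallest number of reads behind any value was 391, for Tyk2 in old IL27RA- replicate 3, and the largest was 11312, for Jak1. Per kilobase of exons, Jak1 was the most abundant of the 9 at 826 ± 151 normalized counts per kilobase (SD, n = 12 libraries), above 93.5% of the genes compared. Stat3, the factor that serves gp130 receptors, followed at 657 ± 172, Stat4 at 451 ± 136, Stat6 at 401 ± 159 and Stat5a at 323 ± 84.7 normalized counts per kilobase. Jak2 at 210 ± 48.7 and Stat5b at 203 ± 43.4 were nearly level, then came Stat2 at 151 ± 47.6, and Tyk2 was the least abundant at 89.1 ± 30.9 normalized counts per kilobase, close to the middle of all genes at the 47.8th percentile.

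The order of these levels was firm at its lower end and loose elsewhere. Stat2 exceeded Tyk2 per kilobase in 12 of 12 libraries and Stat5b exceeded Stat2 in 11. Stat5a exceeded Jak2 in 10 libraries and Stat3 exceeded Stat4 in 10. Jak1 over Stat3 held in 9, Stat6 over Stat5a in 9 and Stat4 over Stat6 in 8. The SDs of each pair of neighbours in the order overlapped, those at the lower end included. Jak2 and Stat5b each led in 6 of 12 libraries, so they did not differ beyond their spread.

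**Figure D1:**
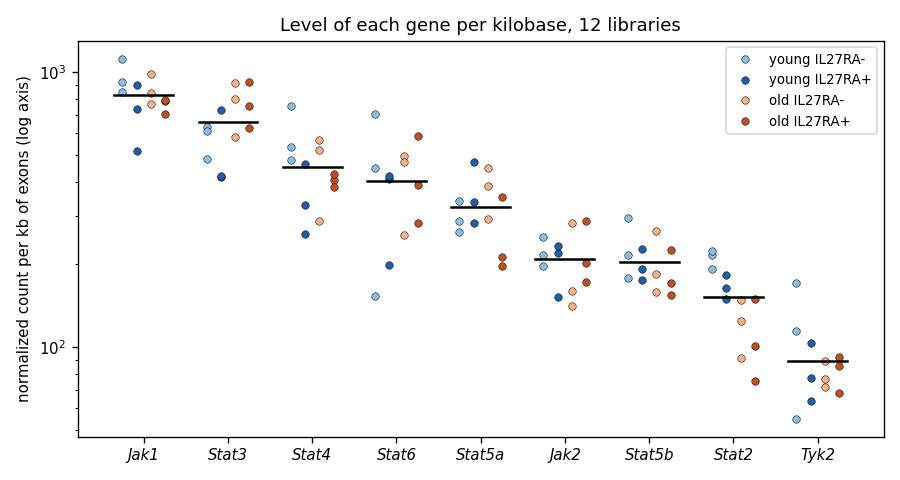
Normalized counts per kilobase of exons (log axis) of the 9 genes in each of the 12 libraries, 1 point per library, coloured by group, with a black line at the mean of the 12. Jak1 and Stat3 sit highest and Tyk2 lowest, and Jak2 and Stat5b overlap almost fully.

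Between libraries of one group most of the 9 varied less on the log2 scale than the median tested gene. The tested genes were not matched for level and reach down to 10 normalized counts in 3 libraries. Each value of the 9 rests on 391 or more reads. The within-group SD on the log2 scale was 0.25 for Jak1, lower than in all but 4.14% of tested genes, and lay between 0.31 and 0.47 for Stat5b, Stat2, Stat3, Stat5a, Jak2, Stat4 and Tyk2, against a median of 0.71 over all tested genes. Stat6 was the exception at 0.74, at the 52.3rd percentile, and its highest library was 4.59 times its lowest.

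The kinases come first, as the step that receptors act on. Jak1, which serves gp130, interferon and common gamma chain receptors, measured 6128, 8095 and 6647 normalized counts in young IL27RA- replicates 1 to 3, 5311, 3743 and 6507 in young IL27RA+, 5528, 7130.0 and 6049 in old IL27RA-, and 5079, 5663 and 5713 in old IL27RA+ libraries. The lowest value was young IL27RA+ replicate 2 and the highest young IL27RA- replicate 2, and the groups overlapped in all 4 comparisons by age or by sort. Averaged over both fractions the old minus young log2 difference of Jak1 was -0.02 ± 0.15 (SE), with a 95% interval from -0.35 to 0.31, its sign turning under upper-quartile scaling. Averaged over both ages its IL27RA+ minus IL27RA- difference was -0.31 ± 0.15 on the log2 scale, with an interval from -0.64 to 0.02 (limma adjusted p = 0.655).

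Jak2, the kinase of the erythropoietin and growth hormone receptors, measured 988, 1086 and 1263 normalized counts in young IL27RA-, 1109, 1177 and 767 in young IL27RA+, 1427, 712 and 802 in old IL27RA-, and 1016, 1450.3 and 871 in old IL27RA+ libraries. High and low libraries occurred in every group, and the group means of 1112, 1018, 980.5 and 1112 were closer together than the replicates within a group. Its log2 difference was -0.06 ± 0.23 (SE) for age and 0.04 ± 0.23 for the sort, each averaged over the other factor.

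Tyk2, the partner kinase of type I interferon, IL-12 and IL-10 receptors, measured 377, 1176 and 787 normalized counts in young IL27RA-, 438, 531 and 709 in young IL27RA+, 613, 527 and 491 in old IL27RA-, and 467, 587 and 634 in old IL27RA+ libraries. Young IL27RA- held both the lowest and the highest value of Tyk2, and the 9 libraries of the other groups fell between them. The log2 difference averaged over fractions was -0.18 ± 0.29 (SE) for old minus young, and averaged over ages it was -0.16 ± 0.29 for IL27RA+ minus IL27RA-.

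**Figure D2:**
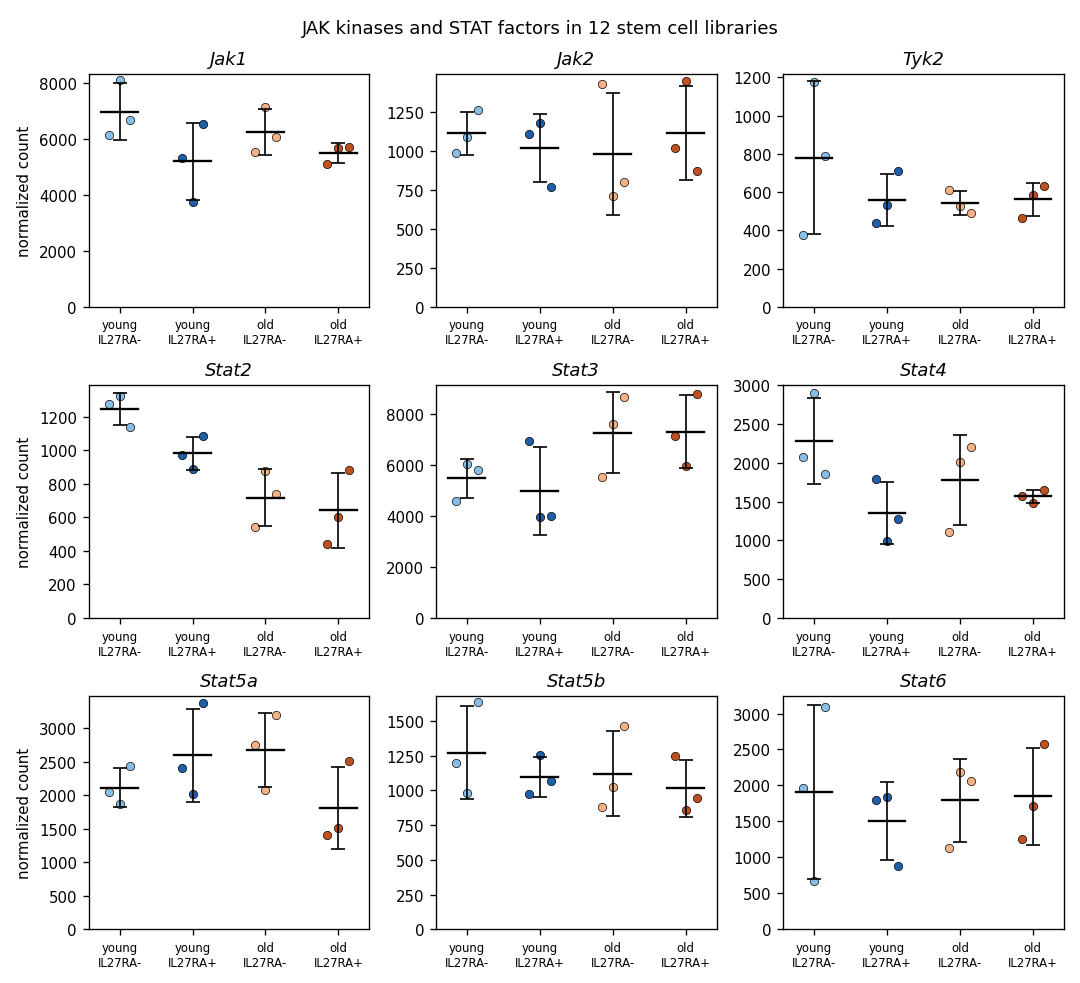
Normalized counts of the 9 genes in every library (axes from 0), 1 panel per gene, with the 4 groups along the horizontal axis, a point per library, a bar at the group mean and whiskers of 1 SD. Stat2 lies lower in the old groups of both fractions without overlap, and the other 8 genes overlap between ages in both fractions.

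Stat2, the factor that joins IRF9 in the interferon response, had the largest averaged difference between ages of the 9. It measured 1277, 1326 and 1141 normalized counts in young IL27RA- libraries against 540.2, 878 and 737 in old IL27RA- libraries. In IL27RA+ cells it measured 971, 889.7 and 1085 in young against 444, 599.6 and 884 in old libraries. In both fractions every old library lay below every young library, by a wide gap in IL27RA- cells and by a few counts in IL27RA+ cells, where old replicate 3 nearly reached young replicate 2. Stat2 was the only one of the 9 whose ages did not overlap in both fractions, while 3.31% of all 14723 tested genes showed such a separation in the same direction in both fractions.

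The means of Stat2 with their SDs over 3 libraries were 1248 ± 96.1 normalized counts in young IL27RA-, 982 ± 98.0 in young IL27RA+, 718 ± 170 in old IL27RA- and 643 ± 223 in old IL27RA+. The old minus young log2 difference was -0.82 ± 0.32 (SE) in IL27RA- and -0.66 ± 0.32 in IL27RA+ cells. Averaged over fractions it was -0.74 ± 0.23, with a 95% interval from -1.22 to -0.26, and the limma adjusted p was 0.121, short of the threshold of 0.05. When old IL27RA- replicate 1 with its Igkc reads was dropped, the averaged difference was -0.65 (limma adjusted p = 0.202). Leaving out any 1 of the 12 libraries kept it between -0.87 and -0.62.

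Stat3 lay on the other side. It measured 4604, 6032 and 5819.7 normalized counts in young IL27RA-, 6959, 3948 and 3992 in young IL27RA+, 5542, 7613 and 8663 in old IL27RA-, and 7148, 5949 and 8803 in old IL27RA+ libraries. The top 4 values were all from old libraries, but young IL27RA+ replicate 1 exceeded 2 of the 6 old libraries, and the ages overlapped in each fraction. Averaged over fractions the old minus young log2 difference of Stat3 was 0.49 ± 0.18 (SE), with an interval from 0.10 to 0.88 (limma adjusted p = 0.209). It was 0.39 ± 0.26 in IL27RA- and 0.59 ± 0.26 in IL27RA+ cells, and its IL27RA+ minus IL27RA- difference averaged over ages was -0.09 ± 0.18. Without young IL27RA+ replicate 1 the averaged age difference was 0.63 (limma adjusted p = 0.0781), the smallest adjusted p that any of the 9 reached in any comparison or alternative.

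Stat4, which IL-12 and type I interferon receptors engage, showed the largest difference by sort. It measured 2077, 2908 and 1856 normalized counts in young IL27RA- against 1793, 999 and 1278 in young IL27RA+ libraries, and 1114, 2010.3 and 2200.1 in old IL27RA- against 1574, 1477 and 1652 in old IL27RA+ libraries. In young cells every IL27RA+ library lay below every IL27RA- library, with 1793 against 1856 as the nearest pair. In old cells the 3 IL27RA+ values sat close together inside the range of the IL27RA- values. The young IL27RA+ minus IL27RA- log2 difference was -0.76 ± 0.31 (SE), with an interval from -1.42 to -0.11 (limma adjusted p = 0.544). In old cells it was -0.12 ± 0.31, and the difference between the 2 ages was 0.64 ± 0.43 (limma adjusted p = 0.941).

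Stat5a and Stat5b encode near-identical factors that serve growth hormone and interleukin receptors, and reads that fit both genes may have been left out or divided in the authors' counting, so their separate values are uncertain. Stat5a measured 2044, 1868 and 2434 normalized counts in young IL27RA-, 2409, 2021 and 3372 in young IL27RA+, 2752, 2084 and 3195 in old IL27RA-, and 1412, 1513 and 2517 in old IL27RA+ libraries. Its 2 lowest values were old IL27RA+ replicates 1 and 2, yet old IL27RA+ replicate 3 lay within the old IL27RA- range. The IL27RA+ minus IL27RA- log2 difference of Stat5a was 0.27 ± 0.28 (SE) in young and -0.59 ± 0.28 in old cells. The interaction of age and sort was -0.86 ± 0.40 with an interval from -1.71 to -0.01 (limma adjusted p = 0.941). Of the 9 it was the 1 gene with an unadjusted interaction p below 0.05, where 5.18% of all tested genes had one, and after adjustment 0 of 9 passed, against 0% of all.

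Stat5b measured 1196, 985 and 1637 normalized counts in young IL27RA-, 973, 1256 and 1065 in young IL27RA+, 877, 1022 and 1462 in old IL27RA-, and 1245, 855 and 944 in old IL27RA+ libraries. No group of Stat5b stood clear of another, and its log2 differences in the 6 comparisons of groups or averages lay between -0.19 and -0.12. Stat5a made up the larger part of the summed Stat5 level per kilobase in 11 of the 12 libraries. Its share was 56.7 ± 3.00% (SD, n = 3) in young IL27RA-, 64.1 ± 7.90% in young IL27RA+, 65.0 ± 5.14% in old IL27RA- and 57.4 ± 10.3% in old IL27RA+. The shares in young IL27RA- libraries, 53.6 to 59.6%, lay below those in old IL27RA- libraries, 61.3 to 70.9%, and the other comparisons by age or by sort overlapped.

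Stat6, the factor of IL-4 and IL-13 receptors, measured 1971, 673 and 3088 normalized counts in young IL27RA-, 1799, 1839.7 and 873 in young IL27RA+, 1123, 2182 and 2068 in old IL27RA-, and 1248, 1712 and 2583 in old IL27RA+ libraries. Its lowest and highest values, young IL27RA- replicates 2 and 3, belonged to the same group. The log2 difference averaged over fractions was 0.21 ± 0.35 (SE) for age, with an interval from -0.54 to 0.95, and averaged over ages it was -0.06 ± 0.35 for the sort.

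Taking each comparison over the 9 genes, the first question is whether their transcripts differ with surface IL27RA. In young cells 0 of 9 passed the adjusted threshold, where 0.0204% of all tested genes did, and 2 of 9, Stat2 and Stat4, had non-overlapping groups, where 9.79% of all tested genes did. In old cells 0 of 9 passed, against 0.0272% of all, and 0 of 9 had non-overlapping groups, against 12.6% of all. Averaged over ages 0 of 9 passed, against 0.19% of all. The IL27RA+ mean of log2 values lay below the IL27RA- mean for 8 of 9 genes in this average, Jak2 being the exception. The median of the 9 was -0.16 and that of all tested genes 0.05, and 0 of 9 intervals excluded 0. The share of all tested genes below 0 was not computed. Without the 2 libraries of lowest weight Tyk2 turned to 0.07. Stat6 turned to 0.17 without young IL27RA- replicate 3, and Jak2 to -0.067 without old IL27RA+ replicate 2. At an unadjusted p below 0.05, limma gave 1 of 9 in young cells, Stat4, against 8.21% of all tested genes, 0 of 9 in old cells, against 5.38%, and 0 of 9 in the average, against 7.97%.

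The second question is whether they differ with age. In IL27RA- cells 0 of 9 passed, against 0.672% of all tested genes, and in IL27RA+ cells 0 of 9, against 0.421%. Non-overlapping ages were found for 1 of 9, Stat2, in each fraction, against 14.5% of all genes in IL27RA- and 16.9% in IL27RA+ cells. Averaged over fractions 0 of 9 passed, against 1.88% of all. An unadjusted p below 0.05 was reached by Stat2 in IL27RA- cells, where 12.5% of all tested genes reached it, by Stat3 in IL27RA+ cells, where 8.89% did, and by both in the average, 2 of 9, where 15.1% did. In both fractions the mean of the old group was lower for Stat2 and Stat5b and higher for Stat3 and Stat6. The remaining members changed sign between the fractions. The 2 age comparisons share no libraries, but they share the estimate of spread, and the labels do not say whether they share mice.

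The intervals bound how large a difference may remain at the spread of these libraries, which may be technical. The share of all tested genes with intervals as narrow was not computed. In the averaged sort comparison the 95% interval of 9 of 9 genes lay within 1 log2 unit of 0 in both directions, and in the averaged age comparison that of 8 of 9 did, all but Stat2. Within a single age or fraction it did for 5 of 9 in young cells, 7 of 9 in old cells, 5 of 9 in IL27RA- and 5 of 9 in IL27RA+ cells. For the interaction only 3 of 9 intervals were that narrow. The median absolute log2 difference of the 9 was 0.15 for age and 0.16 for the sort in the averaged comparisons, against 0.41 and 0.33 over all tested genes. Here too the tested genes were not matched for level.

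**Figure D3:**
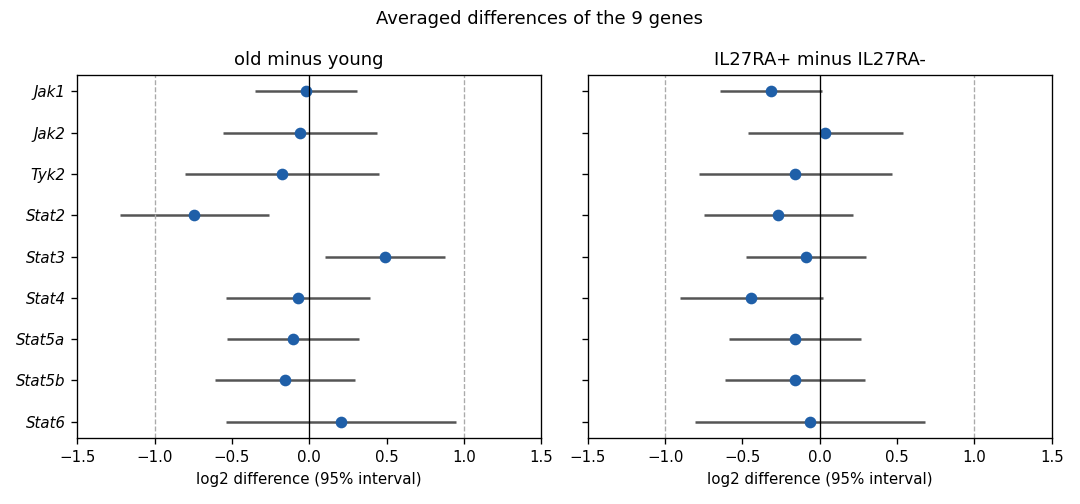
Log2 differences of the 9 genes with 95% intervals from limma, for old minus young averaged over fractions (left) and IL27RA+ minus IL27RA- averaged over ages (right), with a solid line at 0 and dashed lines at -1 and 1. The interval of Stat2 for old minus young from -1.22 to -0.26 lies farthest from 0, and the adjusted p of each plotted value is above 0.05.

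Other cell contents moved with the same groups. By sort the macrophage markers given above were among them. So were the neutrophil markers, 8 of 10 in the table, whose sum ran from 0.716 to 80.4 normalized counts in young IL27RA- and 287 to 358 in young IL27RA+, and from 11.6 to 82.9 in old IL27RA- and 120 to 185 in old IL27RA+ libraries. The sum of 11 stem cell markers ran from 35679 to 39330 and from 30261 to 36509 in young IL27RA- and IL27RA+ libraries, which overlapped, and from 41932 to 45086 and from 32285 to 35910 in old ones, which did not. The sum of 20 cell cycle genes, apart by sort in old and overlapping in young cells, ran from 5067 to 8446 normalized counts in old IL27RA- and from 17768 to 26114 in old IL27RA+ libraries, with 14032 to 19338 in young IL27RA- and 10473 to 21172 in young IL27RA+. By age they included the T and NK cell list, 5 of 11 genes in the table, whose sum ran from 127 to 540 in young IL27RA-, 286 to 330 in young IL27RA+, 1529 to 2981 in old IL27RA- and 710 to 1581 in old IL27RA+, most of it Klrb1c, with Cd2 at 0 in the first 3 of these groups and Il2rb at 0 in 3 of the 4. The dendritic list ran from 3516 to 14622, 2797 to 9330, 14331 to 21982 and 11117 to 18406 in the same order, made up by the MHC class II genes H2-Aa, H2-Ab1 and Cd74, while Cd209a and Batf3 were at 0 in 3 of the 4 groups. The dendritic sums overlapped between ages in IL27RA- cells and were apart in IL27RA+ cells. The erythroid list, 7 of 9 genes in the table, overlapped between ages in both fractions and was apart by sort in young cells only. Its sum ran from 6.44 to 228, 273 to 4745, 93.4 to 270 and 90.0 to 496 in the same order. The 4745 was young IL27RA+ replicate 2, which also held the lowest Jak1, Stat3 and Stat4 values. Without that library the young sort difference was -0.23 for Jak1 and -0.56 for Stat4, against -0.45 and -0.76 with it. The part of these contents in the JAK and STAT values was not tested.

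The receptors that feed these kinases were measured for 33 genes, of which 30 were tested. Il27ra itself averaged 1231 ± 457 (SD, n = 3) in young IL27RA-, 1088 ± 185 in young IL27RA+, 1379 ± 282 in old IL27RA- and 1294 ± 182 normalized counts in old IL27RA+ libraries. The fractions, sorted on the surface protein, overlapped in the transcript at both ages, and the IL27RA+ minus IL27RA- log2 difference was -0.11 ± 0.32 (SE) in young and -0.08 ± 0.32 in old cells. Il6st, its gp130 partner, measured 1118, 971 and 770.4 normalized counts in young IL27RA- and 491, 370.4 and 370.0 in young IL27RA+ libraries, all of the latter lower, and 39.5, 881 and 633 in old IL27RA- and 566, 659 and 655 in old IL27RA+ libraries, which overlapped. Its fitted young difference was -1.21 ± 0.81 (SE) on the log2 scale, the error being estimated over all 12 libraries, the 39.5 of old IL27RA- replicate 1 included.

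By age, averaged over fractions, 2 of the 30 receptors rose and 1 fell at an adjusted p below 0.05, where 1.4% of all tested genes rose and 0.482% fell. Osmr, the oncostatin M chain that pairs with gp130, had 0 to 4 reads in each of the 6 young libraries, then 493, 474 and 919 normalized counts in old IL27RA- and 172, 125 and 152 in old IL27RA+ libraries (limma adjusted p = 0.000224). No fold is given for Osmr because the young values lie at or near the limit of counting. Il10rb, the shared chain of IL-10 and related receptors that uses Tyk2, fell from 1488 ± 330 and 972 ± 72.2 normalized counts in young IL27RA- and IL27RA+ to 583 ± 104 and 662 ± 156 in old ones (SD, n = 3), a log2 difference of -0.96 ± 0.21 (SE, limma adjusted p = 0.0328). Il2rg, the common gamma chain of several interleukin receptors, rose from 2869 ± 350 and 2255 ± 453 to 5005 ± 399 and 2987 ± 208, a log2 difference of 0.61 ± 0.15 (limma adjusted p = 0.0467).

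The Il10rb call was lost without young IL27RA- replicate 3, without any of the young IL27RA+ libraries, or without replicate 2 or 3 of either old group, and the Il2rg call was lost without any library other than young IL27RA+ replicate 1, with adjusted p up to 0.0904 and 0.116. The Osmr call held in each alternative for the average. Within a fraction Osmr was called in IL27RA- (limma adjusted p = 0.00410) and in IL27RA+ cells (0.0341), the latter lost without young IL27RA+ replicate 1 or 2 or without any old library, with adjusted p up to 0.180. The call in IL27RA- cells was lost when only the 2 groups compared were fitted (limma adjusted p = 0.101), and the call in IL27RA+ cells was lost there too (limma adjusted p = 0.0930), with no filter and with voom.

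By sort 0 of 30 receptors passed at either age or in the average. Of all tested genes 0.0204% passed in young cells, 0.0272% in old cells and 0.19% in the average. The smallest p in young cells was that of Il4ra, a receptor chain for IL-4 that acts through Stat6, at -1.24 ± 0.38 (SE) on the log2 scale (limma adjusted p = 0.388). In old cells it was that of Il2rg, at -0.74 ± 0.21 (limma adjusted p = 0.334).

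Of 20 inhibitors tested, 1 rose and 1 fell with age in the average over fractions, where 1.4% of all tested genes rose and 0.482% fell. Socs3, the inhibitor that binds gp130 and JAK, measured 213, 7.16 and 205 normalized counts in young IL27RA- and 120.3, 60.2 and 285 in young IL27RA+ libraries, against 1286, 1461 and 2861 in old IL27RA- and 578, 1639.9 and 772 in old IL27RA+ libraries. Every old library exceeded every young one. The log2 difference of Socs3 was 3.72 ± 0.71 (SE, limma adjusted p = 0.0151), and without old IL27RA+ replicate 2 its adjusted p was 0.0527. The difference was 2.94 without young IL27RA- replicate 2, the library at 7.16 normalized counts.

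Socs2, an inhibitor induced by Stat5, measured 1935, 678 and 1209 normalized counts in young IL27RA- and 1276, 561 and 1354 in young IL27RA+ libraries, against 169, 171 and 1.26 in old IL27RA- and 61.0, 29.7 and 23.4 in old IL27RA+ libraries. All 6 old libraries lay below all 6 young ones. The log2 difference was -4.82 ± 0.89 (SE, limma adjusted p = 0.0118), and it kept its call in each alternative. The value of 1.26 normalized counts in old IL27RA- replicate 3 stands for 1 read, and without that library the difference was -3.78. Ptpn6, a phosphatase that acts on JAKs, came next with -0.66 ± 0.19 and a limma adjusted p of 0.0940. By sort 0 of 20 inhibitors passed in young cells, in old cells or in the average, where 0.0204%, 0.0272% and 0.19% of all tested genes did. Socs5 had the smallest p in young cells, with an interval from -1.83 to -0.18 (limma adjusted p = 0.510).

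Of 10 partners and co-factors of STATs, 0 passed in any comparison, where 0% (interaction) to 1.88% (averaged age) of all tested genes did. Irf9, the partner of Stat2, measured 5569.6, 7892 and 4089 normalized counts in young IL27RA-, 5703, 4544 and 2463 in young IL27RA+, 4180.0, 3709 and 4959 in old IL27RA-, and 3937, 3392 and 4504 in old IL27RA+ libraries. The ages overlapped in both fractions, and the averaged old minus young log2 difference was -0.22 ± 0.21 (SE, limma adjusted p = 0.700), against -0.74 for Stat2. Nmi, a protein that binds STATs, had the smallest p of the list in the averaged age comparison, with 0.36 ± 0.19 (limma adjusted p = 0.389).

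Of 16 survival and growth genes known as STAT targets, 2 rose and 0 fell with age in the average over fractions. Among all tested genes 1.4% rose and 0.482% fell. The median log2 difference of the list was 0.62 against 0.06 over all tested genes. Pim2, a survival kinase induced by Stat5, measured 1385, 823 and 939 normalized counts in young IL27RA- and 803, 957 and 460.2 in young IL27RA+ libraries, against 1839, 3408 and 1656 in old IL27RA- and 3162, 2932 and 2662 in old IL27RA+ libraries. Each old library lay above each young library. The log2 difference of Pim2 was 1.57 ± 0.24 (SE, limma adjusted p = 0.00309) and kept its call in each alternative.

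Ccnd1, the gene of cyclin D1, measured 1274, 1047 and 1388 normalized counts in young IL27RA- and 379.7, 358 and 972 in young IL27RA+ libraries, against 2677, 1732 and 1261 in old IL27RA- and 2362, 1796 and 1904 in old IL27RA+ libraries. The ages overlapped in IL27RA- cells and were apart in IL27RA+ cells. Its averaged log2 difference was 1.26 ± 0.27 (SE, limma adjusted p = 0.0266), lost without young IL27RA- replicate 2, young IL27RA+ replicate 1 or 2, old IL27RA- replicate 1 or 2, or any old IL27RA+ library, with adjusted p up to 0.0781. Within IL27RA+ cells Pim2 (2.04 ± 0.34, limma adjusted p = 0.0180) and Ccnd1 (1.98 ± 0.38, limma adjusted p = 0.0402) passed, and within IL27RA- cells 0 of 16 did. Of all tested genes 0.421% passed in IL27RA+ and 0.672% in IL27RA- cells. The Pim2 call in IL27RA+ cells was lost without young IL27RA+ replicate 3 or any old IL27RA+ library. The Ccnd1 call in IL27RA+ cells was lost without young IL27RA- replicate 1, young IL27RA+ replicate 1 or 2, old IL27RA- replicate 2 or any old IL27RA+ library. With voom both calls in IL27RA+ cells were lost, and that of Ccnd1 also with no filter and when only the 2 groups compared were fitted. By sort 0 of 16 passed in young cells, in old cells or in the average, where 0.0204%, 0.0272% and 0.19% of all tested genes did. Ccnd1 was at -1.27 ± 0.38 in young cells (limma adjusted p = 0.384).

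The interferon genes that the Stat2 and Irf9 complex drives were tested for 24 of 25 genes listed, with Ifi27 not analysed here. With age 1 of 24 rose and 0 fell in the average over fractions, where 1.4% of all tested genes rose and 0.482% fell. The median log2 difference of the 24 was -0.12 against 0.06 over all tested genes. The gene that rose was Ly6e, a surface protein gene, from 8627 ± 1689 and 7720.1 ± 855 normalized counts in young IL27RA- and IL27RA+ to 14314 ± 1460 and 10267 ± 819 in old ones (SD, n = 3), a log2 difference of 0.58 ± 0.13 (SE, limma adjusted p = 0.0388). The Ly6e call was kept without young IL27RA- replicate 1 or young IL27RA+ replicate 1 and lost without any other library, with adjusted p up to 0.103. By sort 0 of 24 passed in young cells, in old cells or in the average, where 0.0204%, 0.0272% and 0.19% of all tested genes did. Gbp2 had the smallest p in young cells, at -0.79 ± 0.40 (limma adjusted p = 0.626).

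**Figure D4:**
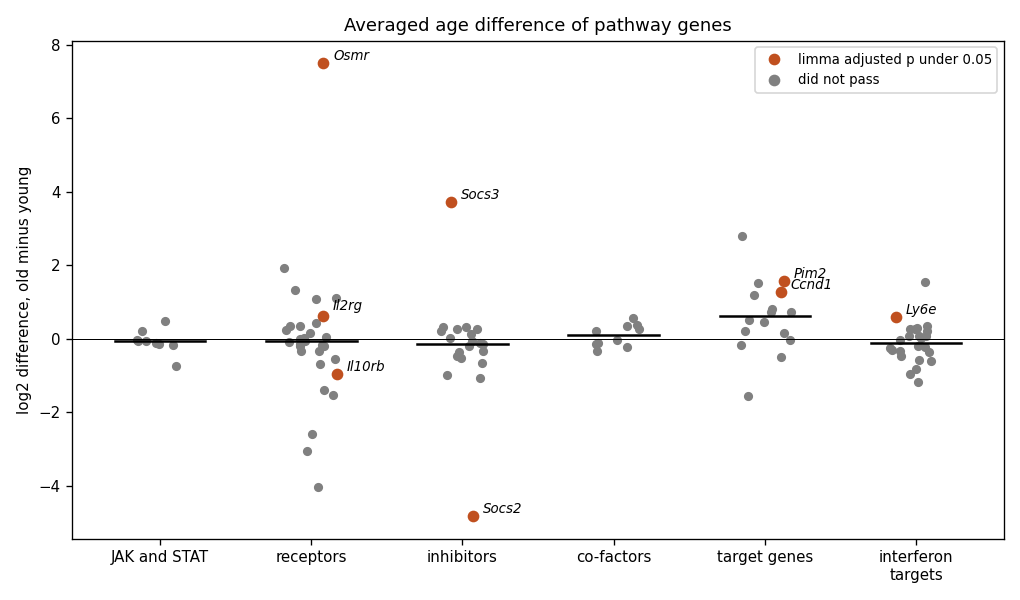
Old minus young log2 differences averaged over fractions for the 9 JAK and STAT genes and for the tested genes of the 5 pathway lists, 1 point per gene, with a bar at the median of each list and genes at an adjusted p below 0.05 named and coloured. The 9 lie between -0.74 and 0.49, while Osmr, Socs3, Pim2, Ccnd1, Il2rg and Ly6e lie above and Socs2 and Il10rb below that range.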

How the data were processed

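RNA of 12 libraries in 4 groups of 3 was analysed. HTSeq, DESeq2, TopHat2 2.1.1 and FastQC 0.11.5 are named per the submitters' processing notes, which as seen here state neither their roles nor their sequence. The build, the treatment of strand and that of reads shared by genes were not given in the sources used here. The deposited table holds log2 values, and the values themselves show these to be log2(normalized count + 1), a normalized count being reads over the library's size factor. For the column of young IL27RA- replicate 2, 1 damaged line (gene Mtbp) breaks that scale in the authors' file, and it was left out. Undoing this scaling returned whole reads, to within 0.001 reads, for 100% of values. Of 20473 lines, 15 repeats were also dropped and 21 symbols that had been turned into dates were restored, leaving 20457 genes.

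Differences were fitted on the log2 values with limma 3.58.1 in R 4.3.3, with 1 mean per group, a variance trend and a spread shared by all 12 libraries (8 residual degrees of freedom), and p-values were adjusted by Benjamini-Hochberg over the 14723 genes with 10 or more normalized counts in at least 3 libraries. Fold changes are on the log2(normalized count + 1) scale. Levels per kilobase used the union of exons in GENCODE M21, matched for 92.9% of genes. The code of the fit was tried on simulated counts with planted changes. That trial does not measure how small a difference in the 9 genes the fit could find. Alternatives changed the filter, pseudocount, scaling, library weights, samples in the fit, test (voom on the recovered reads) and replicate block, and left out each library. Precision is limited by 50 cells per library and by PCR reads without molecular identifiers. All 9 genes are named. Of each pathway list, genes that passed are named, then those of smallest p up to 3, and Il27ra, Il6st and Irf9 in any case, with some of these left out for length and 1 gene not reported here. The genes and lists were chosen with earlier results of these data known, and the counts over them are descriptions.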

Additional observations from a re-analysis of the deposited data

How the results depend on the processing

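For the JAK and STAT genes 0 of 9 passed in each of the 7 comparisons and under each of the 22 alternatives run. Of 1359 member differences recomputed, 1281 kept their sign and 78 turned it, none of them past the threshold in either fit. Upper-quartile scaling turned the averaged age difference of Jak1 to 0.0070 and scaling to the total turned the age difference of Tyk2 in IL27RA+ cells to -0.029. Library weights turned the sort difference in old cells of Stat3 to -0.10 and of Stat6 to -0.19, the averaged age difference of Jak1 to 0.018 and of Stat4 to 0.011, and the interaction of Stat2 to -0.052. Leaving out the 2 libraries of lowest weight together, an alternative chosen after seeing the data, turned Tyk2 to 0.0088 by sort in young cells and 0.071 by sort on average, Stat3 to -0.17 and Stat6 to -0.27 by sort in old cells, Jak1 to 0.041, Stat4 to 0.10 and Stat6 to -0.22 by age in IL27RA- cells, Jak1 to 0.078 and Stat4 to 0.17 by age on average, and the interaction of Stat2 to -0.079 and of Stat3 to -0.059. The cause was not tested.

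Leaving out 1 library gave these ranges of log2 difference where the sign turned. By sort in young cells Jak2 ran from -0.26 to 0.047, Stat5b from -0.36 to 0.0082, Stat6 from -0.79 to 0.31 and Tyk2 from -0.81 to 0.0088. By sort in old cells Stat2 ran from -0.45 to 0.047, Stat3 from -0.17 to 0.15, Stat4 from -0.43 to 0.065, Stat5b from -0.29 to 0.081, Stat6 from -0.27 to 0.29 and Tyk2 from -0.049 to 0.17. By age in IL27RA- cells Stat5b ran from -0.39 to 0.012 and Stat6 from -0.52 to 0.58, and in IL27RA+ cells Jak1 from -0.10 to 0.30, Jak2 from -0.089 to 0.28, Stat6 from -0.042 to 0.56 and Tyk2 from -0.14 to 0.21. In the averaged sort comparison Jak2 ran from -0.067 to 0.19, Stat6 from -0.38 to 0.17 and Tyk2 from -0.38 to 0.026. In the averaged age comparison Jak1 ran from -0.13 to 0.07, Jak2 from -0.22 to 0.035, Stat4 from -0.17 to 0.080, Stat6 from -0.11 to 0.44 and Tyk2 from -0.40 to 0.0084. For the interaction Stat2 ran from -0.10 to 0.39, Stat5b from -0.14 to 0.27 and Stat6 from -0.27 to 0.83. Where an arm was left with 2 libraries its spread was taken from all groups.

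The number of genes called over the whole table moved more. It was 3 by sort in young cells (0 to 50 over single left-out libraries, 0 to 8 over the other alternatives), 4 in old cells (1 to 25 and 0 to 86), 28 averaged over ages (6 to 96 and 6 to 47), 99 by age in IL27RA- cells (32 to 281 and 0 to 109), 62 in IL27RA+ cells (4 to 97 and 13 to 137), 277 averaged over fractions (140 to 434 and 193 to 348) and 0 for the interaction (0 to 5 and 0 to 0). Genes that rose made up 74.4% of the averaged age calls and 62.9% after scaling to the total. Apart from losses on leaving out 1 library, the averaged age calls of Il2rg and Ly6e were lost with no filter (adjusted p 0.0704 and 0.0562) and under scaling to the total (0.0745 and 0.0701), and the Il2rg call also under the block (0.0600) and voom (0.0596). Within IL27RA+ cells the age calls of Ccnd1 and Osmr were lost with no filter (0.0566 and 0.0809), with only the groups compared (0.119 and 0.0930), under the block (0.0581 and 0.0573) and with voom (0.0772 and 0.106), and that of Pim2 with voom (0.0556). The Osmr call in IL27RA- cells was lost with only the groups compared (0.101). Without the 2 libraries of lowest weight the averaged calls of Ccnd1 (0.106), Il2rg (0.0614) and Ly6e (0.0970) were lost.

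The replicate numbers were checked for pairing. Between fractions of the same age and number, deviations from the group means correlated at r = 0.107, 0.027 and 0.016 in young replicates 1 to 3. In old replicates 1 to 3 the values were 0.031, 0.004 and 0.095. Fractions of the same age but different number ran from -0.068 to 0.038. Whether same-number libraries of an age share animals was not tested. Over all 18 pairs with the same number, across ages included, the median r was 0.01, with 1 pair above 0.1. Of the 12 libraries 7 correlated best with one of their own number. The replicate block used the number alone, so young and old libraries of the same number shared a block. Blocks for each age and number were not fitted, so pairing of fractions within an age was not accounted for. With the replicate block 0 of 9 passed in each comparison, and the averaged age difference of Stat2 was -0.74 (limma adjusted p = 0.126). In that fit 319 genes were called by age on average, 0 by sort in young cells and 2 by sort in old cells.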

Other observations

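For each of the 9 genes, the tested gene outside the 9 whose log2 values followed it most closely over the 12 libraries was named by Pearson's r, as a description over libraries that share groups and size factors. Stat6 went with Nkiras2 (r = 0.940, Spearman's rho = 0.923), Stat4 with Hvcn1 (0.937, 0.944), Tyk2 with Gm15927 (0.928, 0.846), Stat2 with Cul7 (0.927, 0.965), Stat5a with Slc27a1 (0.920, 0.923), Jak1 with Zkscan6 (0.915, 0.748), Stat3 with Pno1 (0.906, 0.804), Jak2 with Igf2r (0.865, 0.860) and Stat5b with Dqx1 (0.862, 0.803). Each was the best of 14714 genes compared, so high values are reached by selection.

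Stat3 and its inhibitor gene Socs3 both had higher means in old than in young cells of each fraction, by 0.49 ± 0.18 (SE) and 3.72 ± 0.71 on the log2 scale averaged over fractions, of which the Socs3 difference alone passed the threshold. Stat5a and Stat5b had averaged age differences of -0.11 ± 0.20 and -0.15 ± 0.21 on the log2 scale. Socs2 and Pim2, each named above as induced by Stat5, fell by 4.82 and rose by 1.57. Both were picked because they passed the threshold. Genes that respond to Stat5 were not examined as a set. Stat2 lay lower in old cells without passing the threshold (limma adjusted p = 0.121). Of 24 interferon target genes tested 0 fell and 1 rose past it, where 0.482% of all tested genes fell and 1.4% rose. The averaged age difference was negative for 13 of the 24 and positive for 11.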
